A study of Mus musculus with 30 samples.

Results

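Bile acids are made from cholesterol in hepatocytes. The classic route begins with Cyp7a1 and the alternative route with Cyp27a1 and Cyp7b1, and conjugated bile acids are exported into bile by Abcb11 and taken up again from portal blood, mainly by Slc10a1. Bile acids bind the nuclear receptor FXR, encoded by Nr1h4, which induces Nr0b2 (SHP), a repressor of Cyp7a1 and Cyp8b1.

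The bile acid synthesis and transport genes examined here are 10 of the 12225 named genes tested. They were chosen by name, and their probes were those whose RefSeq transcript belongs to Cyp7a1, Cyp7b1, Cyp27a1, Cyp8b1, Baat, Slc10a1, Slco1a1, Abcb11, Nr1h4 or Nr0b2. These gave 12 probes, and all 12 passed the filter on dim signals. The exposed group was 14 female C57BL/6 mice instilled through the trachea with Printex 90 carbon black nanoparticles at 0.162 mg. The particles were suspended in 0.9% NaCl with 10% lavage fluid from mice of the same strain, and 40 µl of suspension was followed by 150 µl of air. The control group was 16 female C57BL/6 mice whose treatment the labels give only as none. All mice were 5 to 6 weeks old on arrival, and neither their age nor the time after instillation at sampling is given in the sources used here. The series text speaks of 6 mice per group, fewer than the arrays analysed here.

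Each mouse contributed 1 array, with its liver RNA labelled with Cy5 and a commercial mouse reference RNA pool labelled with Cy3. Levels below are log2 of Cy5 over Cy3, so a difference of 1 is a doubling, and levels of different genes are not compared with each other. Animal numbers form 3 runs of neighbouring numbers in each group, with 4, 5 and 5 exposed mice and 6, 5 and 5 control mice. What sets the runs apart is not given in the labels. In both groups all arrays of run 1 sat at the first of the positions their group used on a slide and all of run 3 at the last, while run 2 used both, so for runs 1 and 3 run and position cannot be told apart. Median Cy5 signals of the arrays lay between 104 and 196. Control arrays sat at positions 1 and 2 of each slide and exposed arrays at positions 3 and 4, so position and group cannot be told apart. All 5 tested hepatocyte markers (Alb, Ttr, Apoa1, Apob and Tat) were well above background in Cy5 on 30 of 30 arrays. In whole liver, fewer cells of a type and less RNA per cell cannot be told apart.

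None of the 10 genes passed an adjusted p of 0.05 in limma's moderated test, either between exposed and control livers or among the runs of a group. In exposed against control livers, 0 of 10 passed, with 1 of 10 (Slco1a1) at an unadjusted p under 0.05. Of all 23607 probes tested in that comparison, 0.0169% passed after adjustment and 12.2% without it. The differences were above 0 for 9 of the 10 genes, with a median of 0.11 over the 10, beside -0.001 over all named genes tested, but for 4 of the 10 with Agilent's processed signals and for 6 without exposed run 3. The ratios of the 10 genes were correlated across mice (median r of 0.58 over 45 pairs), so these signs are not separate observations. The share of all named genes above 0 was not computed. The groups overlapped for 10 of the 10 genes, as they did for 12225 of the 12225 named genes tested.

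**Figure D1:**
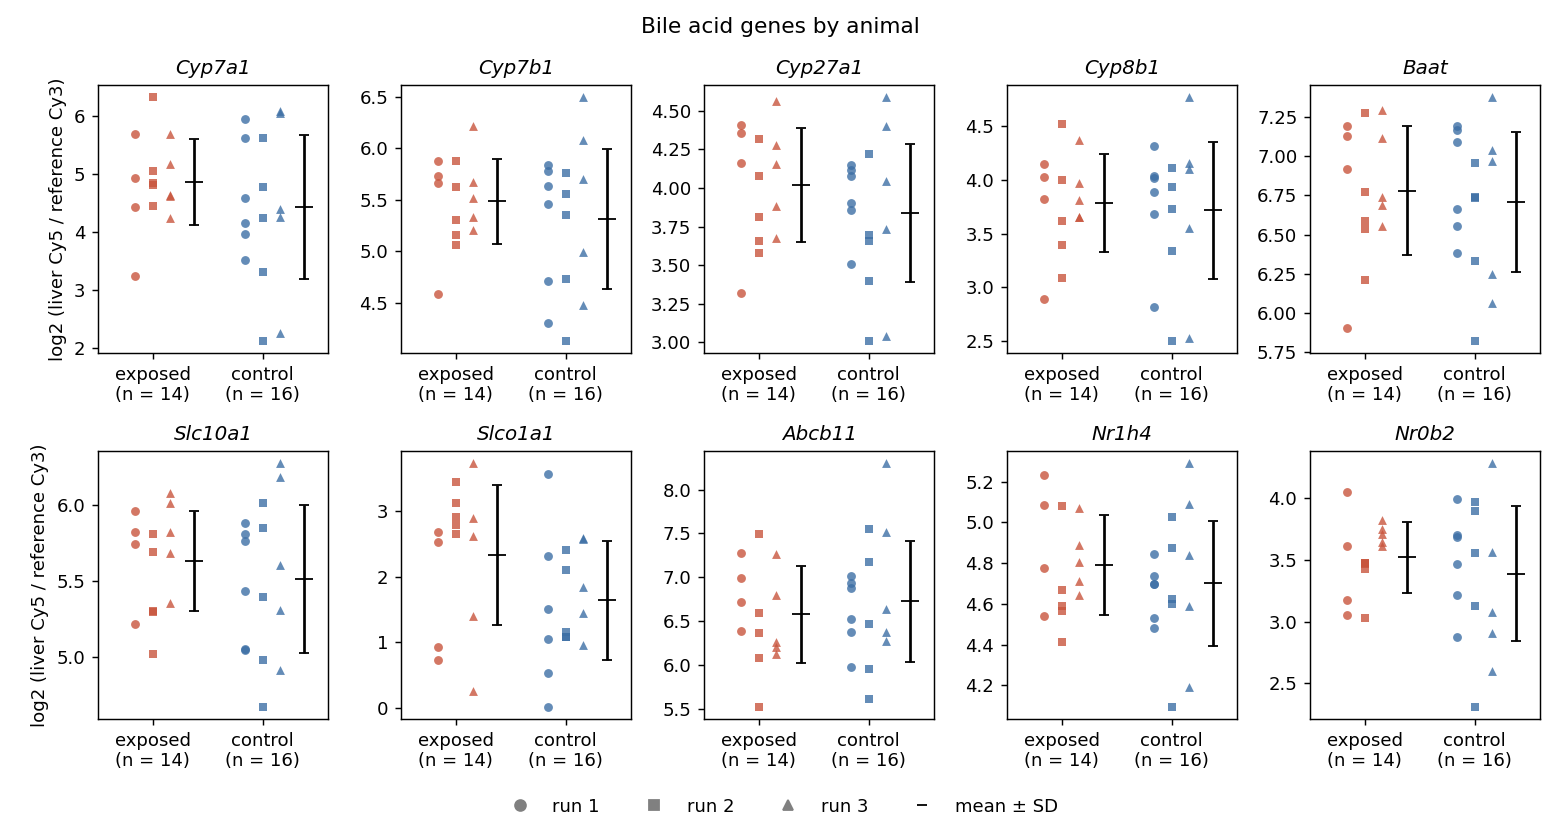
Level of each gene by animal as log2 of liver Cy5 over reference Cy3 (vertical axes, which differ between panels) in exposed (red) and control (blue) mice. Point shapes mark the 3 runs of animal numbers, and black bars give the mean and SD. The groups overlap in all 10 panels, and the control mice span the wider range for Cyp7a1, from 2.12 to 6.10.

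Among the synthesis enzymes, Cyp7a1, the rate-limiting enzyme of the classic route, varied most between animals. Its lowest, median and highest levels were 3.24, 4.83 and 6.33 in exposed livers, against 2.12, 4.33 and 6.10 in control livers. The means were 4.87 ± 0.74 in exposed livers (SD, n = 14) and 4.44 ± 1.25 in control livers (SD, n = 16). The difference was 0.37 ± 0.34 (SE; 95% interval -0.33 to 1.07; limma adjusted p = 0.71), so changes from a 0.798-fold to a 2.09-fold level lie within it. Across the 30 mice Cyp7a1 spanned 18.6-fold, and its SD of 1.05 was at percentile 99.9 of the 12225 named genes, whose median SD was 0.18. The Cyp7a1 difference was 0.18 with Agilent's processed signals, 0.17 with slide as a fixed block, 0.11 with array weights and 0.071 without the arrays of the earlier software version. Over all 48 alternatives it ran from 0.071 to 0.51. A second, dimmer Cyp7a1 probe gave 0.28 ± 0.26 (SE).

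Cyp7b1, the oxysterol 7-alpha-hydroxylase of the alternative route, had lowest, median and highest levels of 4.59, 5.57 and 6.21 in exposed livers, against 4.13, 5.51 and 6.50 in control livers. Cyp27a1, the mitochondrial sterol 27-hydroxylase, had 3.32, 4.12 and 4.56 in exposed livers, against 3.01, 3.88 and 4.59 in control livers. Their differences were 0.18 ± 0.18 and 0.17 ± 0.13 (SE). For both enzymes the range of the exposed mice lay inside that of the control mice.

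Cyp8b1, the sterol 12-alpha-hydroxylase that directs synthesis towards cholic acid, had lowest, median and highest levels of 2.89, 3.82 and 4.52 in exposed livers, against 2.50, 3.91 and 4.77 in control livers. Baat, which joins bile acids to taurine or glycine, had 5.91, 6.75 and 7.30 in exposed livers, against 5.82, 6.74 and 7.38 in control livers. Both differences were 0.06, with 95% intervals from -0.33 to 0.45 for Cyp8b1 and from -0.22 to 0.34 for Baat. Here too the exposed ranges lay inside the control ranges.

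Promoters from RefSeq (GRCm38.p6, 250 bases before to 50 after a start site) were listed for 7 of the 10 genes, as 8 sequences. They were searched on both strands for GGTCANTGA, the core of an inverted repeat bound by FXR, for CAAGGTCA and CAAGGCCA (Nr5a2), for CAAAGTCCA (Hnf4a) and for TTATGTAA (the Dbp family). Of all 32851 promoters in the table, these letters occurred in 0.84%, 1.56%, 2.4%, 0.475% and 0.938%. A match was found in 2 of the 8, which are shown because they hold it, with the match in capitals. The Cyp8b1 promoter (chr9:121916256-121916555, minus strand) holds CAAAGTCCA beginning at base -67, and the Nr0b2 promoter (chr4:133553126-133553425, plus strand) holds CAAGGCCA beginning at base -201. A match is a description of these letters, not a measured binding site.
Cyp8b1: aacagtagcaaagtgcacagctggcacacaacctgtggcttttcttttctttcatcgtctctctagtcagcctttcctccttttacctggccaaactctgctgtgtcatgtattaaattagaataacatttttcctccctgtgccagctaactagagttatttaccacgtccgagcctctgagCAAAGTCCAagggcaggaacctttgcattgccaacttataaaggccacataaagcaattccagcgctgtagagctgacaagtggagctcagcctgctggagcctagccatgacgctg
Nr0b2: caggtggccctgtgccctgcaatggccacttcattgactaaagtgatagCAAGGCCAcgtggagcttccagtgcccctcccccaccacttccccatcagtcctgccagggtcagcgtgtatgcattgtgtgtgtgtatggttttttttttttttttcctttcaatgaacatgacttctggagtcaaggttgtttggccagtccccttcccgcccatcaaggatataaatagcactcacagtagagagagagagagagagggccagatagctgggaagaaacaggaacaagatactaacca

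Of the uptake transporters, Slc10a1 (NTCP), the sodium-dependent carrier, had lowest, median and highest levels of 5.02, 5.72 and 6.08 in exposed livers, against 4.67, 5.52 and 6.28 in control livers. The difference was 0.12 ± 0.13 (SE; 95% interval -0.16 to 0.39).

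Slco1a1 (Oatp1a1), a sodium-independent organic anion carrier of the hepatocyte, gave the widest difference of the 10 genes. Its lowest, median and highest levels were 0.26, 2.67 and 3.73 in exposed livers, against 0.02, 1.47 and 3.56 in control livers. The difference was 0.66 ± 0.32 (SE; 95% interval 0.01 to 1.31, unadjusted p = 0.0461, limma adjusted p = 0.40), a 1.58-fold level. With Agilent's processed signals the Slco1a1 difference was 1.22. On the 7 slides that held both groups, the exposed mean was higher on 5, by 0.62 ± 0.92 (SD, n = 7). Cy5 was well above background on 28 of 30 arrays for Slco1a1 and Cy3 on 0 of 30, so the level is relative to a reference signal at background.

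Exposed run 2 had the highest Slco1a1 mean of the exposed runs, 2.98. Its 5 mice had Slco1a1 levels of 2.91, 3.44, 2.65, 2.78 and 3.12. The 4 mice of exposed run 1 had 0.93, 0.73, 2.69 and 2.53, and the 5 of exposed run 3 had 1.40, 2.61, 0.26, 3.73 and 2.89. The control runs had medians of 1.28, 1.16 and 1.85. Control run 1 reached 3.56, above all 5 mice of exposed run 2. Set against the average of the control runs, exposed run 2 was 1.22 ± 0.45 (SE; 95% interval 0.30 to 2.14, limma adjusted p = 0.34). Without exposed run 2, the difference between exposed and control livers was 0.35 for Slco1a1 (limma adjusted p = 0.74). Leaving out the highest run lowers the difference by construction. Among the exposed runs limma's F test for Slco1a1 gave an unadjusted p of 0.193 (adjusted p = 0.49).

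**Figure D2:**
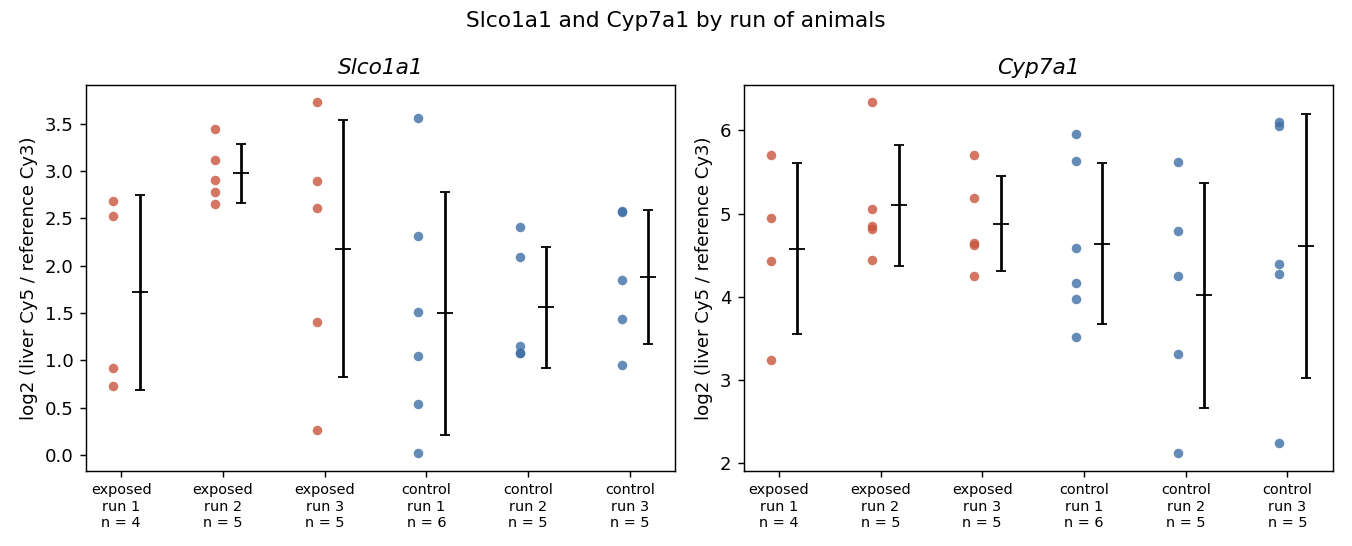
Levels of Slco1a1 and Cyp7a1 as log2 of liver Cy5 over reference Cy3 (vertical axes) in the 3 runs of exposed (red) and the 3 runs of control mice (blue), with 1 point per animal and bars for mean and SD. The 5 Slco1a1 levels of exposed run 2 lie between 2.65 and 3.44, and the other runs span wider ranges.

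Abcb11, the bile salt export pump, was the exception in direction. Its lowest, median and highest levels were 5.52, 6.49 and 7.50 in exposed livers, against 5.61, 6.58 and 8.30 in control livers. The difference was -0.14 ± 0.19 (SE; 95% interval -0.53 to 0.26), and the groups overlapped.

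Nr1h4, the bile acid receptor, had lowest, median and highest levels of 4.41, 4.74 and 5.23 in exposed livers, against 4.09, 4.70 and 5.29 in control livers. Its repressor target Nr0b2 had 3.03, 3.54 and 4.05 in exposed livers, against 2.31, 3.51 and 4.28 in control livers. The differences were 0.09 ± 0.09 for Nr1h4 and 0.11 ± 0.14 for Nr0b2 (SE). In the ratio Nr1h4 had the smallest SD of the 10 genes over the 30 mice, 0.28, whereas in Cy5 alone Baat (0.22), Abcb11 (0.27) and Slc10a1 (0.30) had smaller SDs than Nr1h4 (0.32).

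The runs were then compared, since exposed run 1 differed widely from the controls elsewhere. There Lcn2 (lipocalin 2, an acute phase protein) was 3.02 ± 0.38 higher than in the controls, taken as the average of their 3 runs (SE; limma adjusted p = 4.35e-05), and 4.80% of the 23607 probes passed. With a term for array position (first or last of the positions a group used), 288 probes passed in exposed run 1, against 1132 without it. Only run 2 used both places, so this term rests on run 2 and lowers the precision for runs 1 and 3. The part of position in the exposed run 1 differences was not tested. Of the 10 bile acid genes, 0 passed in exposed run 1 and 0 had an unadjusted p under 0.05, beside 18.7% of probes. With the authors' deposited log2 values in place of the ratios used here, Nr1h4 passed in exposed run 1, at 0.35 (limma adjusted p = 0.0483). In exposed run 2, 0 of 10 passed beside 0.0169% of probes, with Slco1a1 at an unadjusted p under 0.05 beside 10.3%. In exposed run 3, 0 of 10 passed beside 0.131%, and 0 had an unadjusted p under 0.05 beside 13.1%. Cyp7a1 was 0.11 ± 0.54 in exposed run 1, 0.59 ± 0.50 in exposed run 2 and 0.43 ± 0.50 in exposed run 3, against the same mean (SE).

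**Figure D3:**
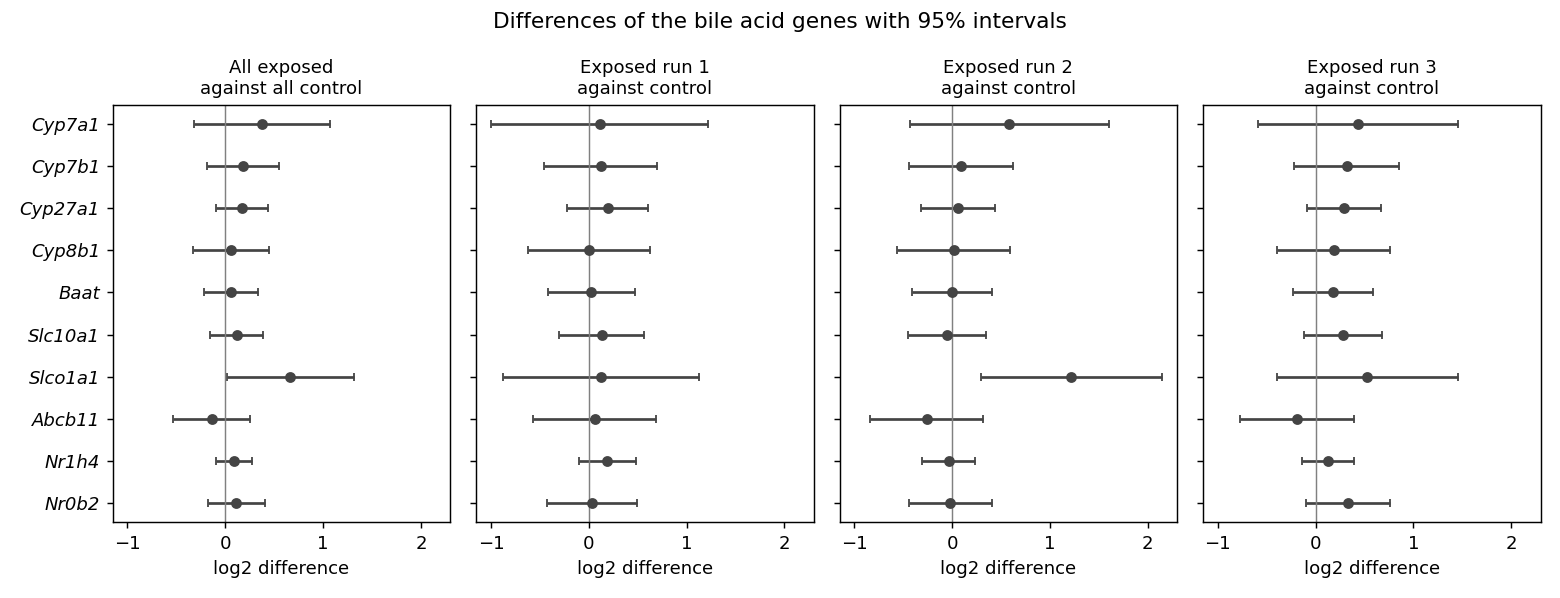
Log2 differences with 95% intervals (horizontal axes) for the 10 genes, for all exposed against all control mice and for each exposed run against the controls. The intervals include 0 except for Slco1a1 over all mice, from 0.01 to 1.31, and in exposed run 2, from 0.30 to 2.14.

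Among the 3 exposed runs, 0 of 10 genes passed limma's moderated F test beside 4.13% of probes, and 0 had an unadjusted p under 0.05 beside 19.5%. Among the 3 control runs, 0 of 10 passed beside 0.0890% of probes, and again 0 had an unadjusted p under 0.05 beside 7.03%. With the same term for array position, which rests on run 2, 164 probes passed among the exposed runs, against 976 without it. The smallest unadjusted p among exposed runs was that of Slco1a1, 0.193.

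A wider list of bile acid genes outside the 10 held 51 names, of which 45 were tested. In exposed against control livers 0 of the 45 passed in limma's test and 5 had an unadjusted p under 0.05, beside 0.0169% and 12.2% of all probes, with a median difference of 0.03. The smallest p were those of Abcg8, a half-transporter for biliary cholesterol, at 0.51 ± 0.19, of Slc10a2, the apical sodium-dependent carrier, at 0.42 ± 0.16, and of Akr1d1, the 5-beta-reductase, at 0.43 ± 0.18 (SE; limma adjusted p = 0.25, 0.28 and 0.34).

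In exposed run 1, 2 of the 45 passed (4.44%, beside 4.80% of all probes in either direction), of which 2 rose and 0 fell. Of all 23607 probes, 378 rose and 754 fell. Abcc3 (MRP3), which exports conjugates across the basolateral membrane, had levels of 3.68, 3.83, 3.53 and 3.78 in exposed run 1, against medians of 3.51, 3.07 and 3.23 in the control runs. Mafg, a small Maf protein and transcriptional repressor of bile acid synthesis genes, had 0.80, 0.79, 0.96 and 0.94 in exposed run 1, against medians of 0.66, 0.31 and 0.28 in the control runs. Both rose, Abcc3 by 0.44 ± 0.10 and Mafg by 0.42 ± 0.08 (SE; limma adjusted p = 0.00775 and 0.00247). Against control run 1 alone, Abcc3 was 0.13 ± 0.11 and Mafg 0.20 ± 0.09 (SE; limma adjusted p = 0.69 and 0.40). Abcc3 and Mafg were also the 2 of 45 that passed limma's F test among the exposed runs (4.44%, beside 4.13% of all probes, adjusted p = 0.00236 and 0.00473). Among the control runs the same F test gave F = 14.2 for Abcc3 and 10.3 for Mafg, beside 18.5 and 15.5 among the exposed runs. Their unadjusted p among the control runs were 5.41e-05 and 0.000427, and their adjusted p 0.0555 and 0.192. There 0 of the 45 passed and 4 had an unadjusted p under 0.05, beside 0.0890% and 7.03% of all probes. In exposed run 1 a second Abcc3 probe gave 0.31 ± 0.13 (SE; limma adjusted p = 0.175). Without exposed mouse 177, Abcc3 was 0.41 (limma adjusted p = 0.0502).

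Control run 1 also carried the higher Lcn2 levels among controls, with a median of 1.18, beside 0.38 in control run 2 and -0.005 in control run 3. In exposed run 1, 1 of 5 hepatocyte markers (Ttr, -1.14 ± 0.25 SE), 1 of 5 bile duct markers (Spp1) and 1 of 5 stellate cell markers (Pdgfrb) fell, and 0 of 6 Kupffer cell, 0 of 5 sinusoidal endothelium and 0 of 2 tested neutrophil markers passed. The mean level of the bile duct markers lay between -2.83 and -2.57 in exposed run 1, against -2.59 to -2.04 in control mice. That of the hepatocyte markers lay between 5.37 and 5.76, against 5.09 to 6.48. For the Kupffer cell, neutrophil, sinusoidal endothelium and stellate cell markers the ranges also overlapped more widely than for the bile duct markers. The part of these marker and Lcn2 shifts in the Abcc3 and Mafg values was not tested.

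**Figure D4:**
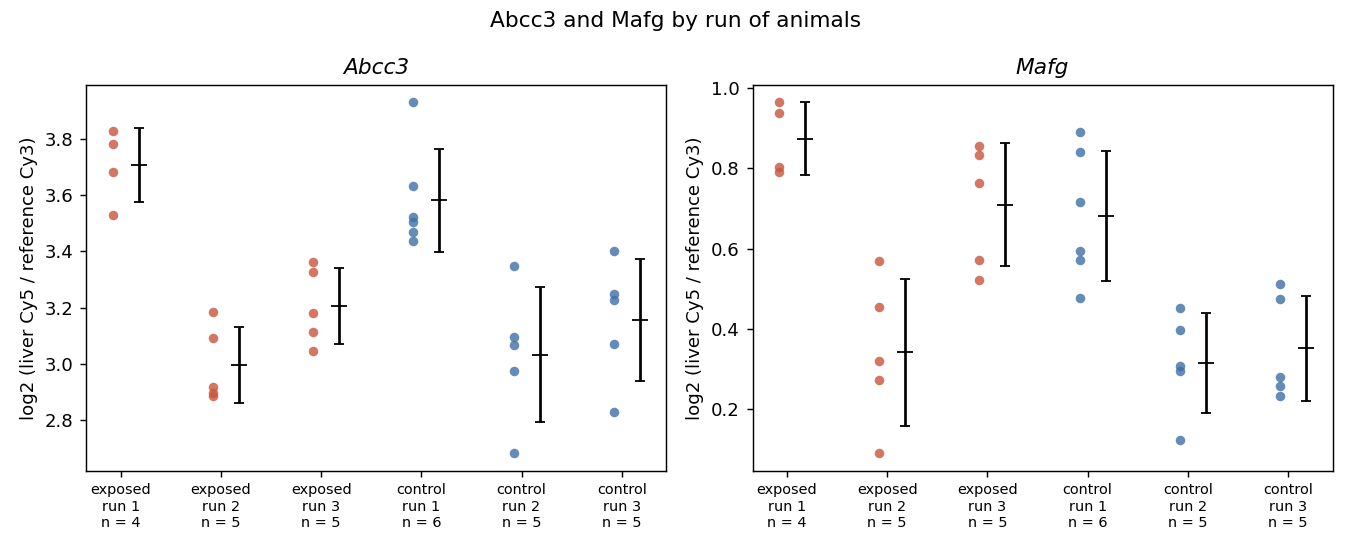
Levels of Abcc3 and Mafg as log2 of liver Cy5 over reference Cy3 (vertical axes) in the 3 runs of exposed (red) and the 3 runs of control mice (blue), with 1 point per animal and bars for mean and SD. For both genes exposed run 1 and control run 1 have the highest medians of their group.

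Across the 30 mice the ratios of most of the 10 genes were correlated with each other, and so were their signals in the reference channel. Of the 45 pairs, 45 had a positive Pearson r in the ratio and 32 an adjusted permutation p under 0.05, with a median r of 0.58. In Cy3 alone, which held the same reference RNA on every array, 35 of 45 passed, at a median r of 0.62, and in the liver channel (Cy5) alone 3 of 45, at a median r of 0.16. Each channel alone was rebuilt from the normalised ratio and mean intensity, so it is not the raw dye signal. An r above 0.5 was found in the ratio for 60% of the 45 pairs, beside 4.34% of all pairs of the 11602 named genes with a value on every array. In Cy3 these shares were 64.4% and 8.89%, and in Cy5 6.67% and 4.52%. In the ratio, changes of the liver RNA and shifts in Cy3 cannot be told apart. The closest pair was Cyp7b1 with Cyp27a1 (r = 0.89, Spearman rho = 0.89, each with a permutation p of 1e-05, the smallest that 100000 permutations can give; r = 0.93 without the 2 mice farthest from the Cyp7b1 median). Cyp7a1 with Nr0b2 had r = 0.18 (rho = 0.16, permutation p = 0.338 and 0.384, adjusted p = 0.37 for r). Slco1a1 passed with 0 of the other 9 genes, at a median r of 0.18. With slide means subtracted 27 of 45 pairs passed, and with run means subtracted 27.

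The 3 pairs that passed in Cy5 were Cyp7b1 with Cyp27a1 (r = 0.58), Cyp27a1 with Nr1h4 (r = 0.53) and Cyp8b1 with Nr1h4 (r = 0.68), with adjusted permutation p of 0.0119, 0.034 and 0.0045. For Baat and Abcb11 the SD over mice was wider in Cy3 (0.45 and 0.55) than in Cy5 (0.22 and 0.27), whereas for Slco1a1 it was wider in Cy5 (0.91) than in Cy3 (0.31). Between exposed and control positions the Cy3 signal of the 10 genes differed by -0.10 to 0.11, and 0 of 10 passed in limma's test, with 0 at an unadjusted p under 0.05, beside 0% and 5.41% of probes.

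**Figure D5:**
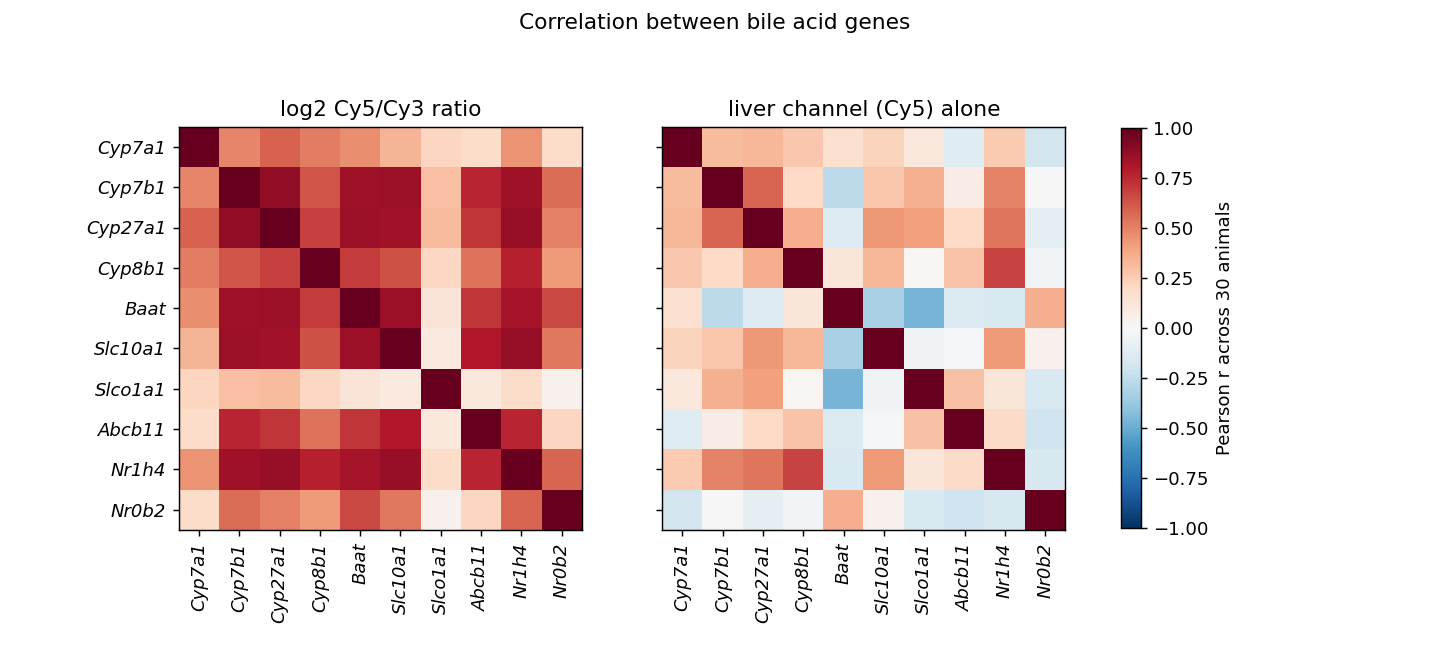
Pearson r between the 10 genes across 30 mice (colour, from -1 to 1) for the log2 ratio of Cy5 over Cy3 (left) and for the liver channel alone (right). The ratio gives positive values in all 45 pairs, and the liver channel in 29 of 45.

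The mean of the hepatocyte markers correlated with 7 of the 10 genes among 20 relations tested, with r from 0.07 for Slco1a1 to 0.86 for Abcb11 (rho = 0.78, permutation p = 1e-05 and 2e-05, adjusted p = 6.67e-05), and the median Cy5 signal of the array with 0. The marker mean and the genes are ratios to the same Cy3, so changes of the liver RNA and shifts in Cy3 cannot be told apart. The share of all named genes correlated with this mean was not computed, nor was the relation in Cy5 alone. After the hepatocyte mean was subtracted 28 of 45 pairs passed. The same mean was taken from every gene, which adds a shared part to genes that did not follow it. Cyp7a1, at r = 0.09 with the mean, went from r = 0.59 to 0.73 with Cyp27a1. The count of 28 is therefore not one with the hepatocyte share removed. Neither Cyp7a1 (r = -0.005, rho = -0.044, permutation p = 0.981 and 0.816) nor Nr0b2 (r = 0.10, rho = 0.24, permutation p = 0.593 and 0.195) showed a correlation with Dbp, a clock output factor, that passed over the 2 relations (adjusted p = 0.981 for both). Without the 2 mice farthest from the Dbp median, r was -0.17 for Cyp7a1 and 0.04 for Nr0b2. Dbp itself was 1.02 ± 0.36 higher in exposed than in control livers (SE; limma adjusted p = 0.24), and r over the 30 mice includes this difference. In exposed run 1, 2 of 13 tested clock genes (Tef and Per3) passed, both higher, beside 4.80% of all probes. Within the exposed mice Nr0b2 with Dbp had r = 0.55 (permutation p = 0.0401, adjusted p = 0.0802; r = 0.62 without the 2 farthest mice) and rho = 0.68 (permutation p = 0.00853). Within the control mice it had r = -0.15 (permutation p = 0.569) and rho = -0.047 (permutation p = 0.866), and the difference between the groups was not tested. In exposed runs 1, 2 and 3 the Dbp means were 0.06, -0.80 and 0.78 and the Nr0b2 means 3.47, 3.38 and 3.71. The permutations within exposed mice moved animals across runs, and the part of the runs in this r was not tested. With run means subtracted, Nr0b2 with Dbp had r = -0.13 over the 30 mice of both groups (permutation p = 0.57). The same r within the exposed mice alone was not computed. Cyp7a1 with Dbp had r = 0.089 within the exposed mice, which was 0.605 without the 2 farthest, and r = -0.20 within the control mice. The named genes whose ratio was most like that of Cyp7a1 over the 30 mice were Prox1 (r = 0.76), Cipc (r = 0.75), C2cd2l (r = 0.74), Dcun1d3 (r = 0.73) and Trmt61a (r = 0.73). The least like were Smc2 (r = -0.73), Blm (r = -0.70) and Spag5 (r = -0.66). These are the 2 ends of a ranking over the named genes, made in the ratio only and without a test.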

How the data were processed

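Scanner files deposited for each of 30 arrays hold foreground and background intensity per spot, extracted with Agilent Feature Extraction 10.7.3.1 (25 arrays) or 10.1.1.1 (5 arrays), per the file headers. They also hold log10 ratios of the dyes, per the file headers. The deposited value table holds the authors' log2 ratios of Cy5 over Cy3. Over 12813 bright spots each of its 30 columns matched its own array best (r from 0.981 to 0.993, slopes from 0.867 to 0.939), with column medians from -0.045 to -0.021. How the authors normalised it is not given in the sources used here.

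Median signals were corrected by normexp (offset 50) and normalised by loess within arrays (limma 3.58.1, R 4.3.3). Spots marked as outliers were left out, which removed no value of the 10 genes. Of 41174 probes, 23607 with Cy5 well above background on at least 14 arrays were tested. Symbols came from RefSeq (GRCm38.p6) by transcript accession. Where several probes of a gene were tested, the one brightest in Cy5 on average stands for it. Slide was a random block (correlation 0.159 over groups, 0.147 over runs). P-values are two-sided, from limma's moderated test, adjusted by Benjamini-Hochberg over all tested probes with a threshold of 0.05. A new run starts at a gap of more than 10 in animal numbers. Correlations used 100000 permutations, within slides or runs where those means were subtracted. The labels do not say that animals came from separate litters or cages, so p-values measure the spread between these animals.

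The fit was run on simulated data with known changes. Those data held normal noise and a slide effect, without run differences or Cy3 shifts shared between genes, so they do not test these. The genes and lists were chosen with earlier results of these data known. All 10 genes were named. Other genes followed a rule: wider-list genes past the threshold, up to 4 per comparison, or the 3 with the smallest p, and for Cyp7a1 the 5 highest and 3 lowest correlations. The background correction, normalization, filter, slide block, array weights, probe averaging, array position, software version, control run and left-out animals were varied. The Cy5 channel alone, the subtraction of hepatocyte markers and the r of 0.5 used to compare gene pairs were chosen after seeing the data.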

Additional observations from a re-analysis of the deposited data

Results flagged for a closer look

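In 60 sets of 1 gene in 1 run, 2 held an animal far from the others by Dixon's criterion, where chance marks about 1 in 20. Cyp7b1 was 4.59 in exposed mouse 176, below the nearest of the other mice of exposed run 1, at 5.66. Nr0b2 was 3.03 in exposed mouse 195, below the nearest of the other mice of exposed run 2, at 3.43.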

How the results depend on the processing

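None of the 10 genes passed in any of the 6 comparisons under the alternatives run, except Nr1h4 in exposed run 1 with the deposited values, which gave a count of 1. Slco1a1 was not tested under the filter for all arrays. The smallest adjusted p over the alternatives was 0.212 over all mice, 0.149 in exposed run 2 and 0.323 in exposed run 3. Differences changed sign in 53 of 469 values in exposed run 1 (7 genes), 73 of 469 in exposed run 2 (8 genes), 7 of 469 in exposed run 3 (7 genes) and 13 of 479 over all mice (5 genes), and the cause was not tested. Among those that did, Cyp7a1 was 0.59 in exposed run 2 as reported, and Nr0b2 0.33 and Cyp7b1 0.32 in exposed run 3. Over all mice each of the 10 differences also moved by over 1.5 times with its sign kept, under 2 settings for Slco1a1 and Cyp27a1 and up to 19 for Cyp8b1. With Agilent's processed signals the reversed values were Cyp7b1 -0.28, Cyp27a1 -0.039, Cyp8b1 -0.055, Baat -0.10, Nr0b2 -0.20 over all mice, and Cyp7a1 -0.017, Cyp7b1 -0.42, Cyp27a1 -0.31, Baat -0.32 in exposed run 2, and Cyp7b1 -0.47, Cyp27a1 -0.057, Cyp8b1 -0.24, Baat -0.16, Nr0b2 -0.19 in exposed run 3. With a normexp offset of 16 the reversed values were Baat -0.030 over all mice, and Cyp8b1 -0.083, Baat -0.030, Nr0b2 -0.019 in exposed run 1, and Cyp7b1 -0.044, Cyp27a1 -0.033, Baat -0.11 in exposed run 2. With array weights the reversed values were Cyp8b1 -0.018 over all mice, and Cyp7b1 -0.035, Cyp27a1 -0.012, Cyp8b1 -0.15, Baat -0.10 in exposed run 2. With exposed run 3 left out the reversed values were Cyp8b1 -0.001, Baat -0.002, Nr0b2 -0.003 over all mice. With a fixed slide block the reversed values were Baat -0.096, Nr0b2 -0.096 in exposed run 1, and Slc10a1 0.057 in exposed run 2. With the mean over the probes of a gene the reversed values were Baat -0.001 in exposed run 1. With a term for array position the reversed values were Cyp8b1 -0.13, Baat -0.060, Abcb11 -0.21 in exposed run 1, and Abcb11 0.064 in exposed run 3. With the earlier software version left out the reversed values were Cyp8b1 -0.007 in exposed run 1, and Cyp8b1 -0.23, Baat -0.018, Nr0b2 0.14 in exposed run 2. With the Cy5 channel alone the reversed values were Abcb11 -0.22 in exposed run 1, and Cyp8b1 -0.18, Baat -0.14, Slc10a1 0.059 in exposed run 2, and Nr1h4 -0.033 in exposed run 3. With control run 1 alone as the comparison the reversed values were Cyp7a1 -0.083, Cyp8b1 -0.077, Baat -0.097, Nr0b2 -0.025 in exposed run 1, and Cyp27a1 -0.034, Cyp8b1 -0.065, Baat -0.12, Nr1h4 0.004 in exposed run 2. With control run 3 alone as the comparison the reversed values were Cyp7a1 -0.12, Cyp7b1 -0.14, Cyp8b1 -0.11, Baat -0.009, Slco1a1 -0.15, Abcb11 -0.20 in exposed run 1, and Cyp7b1 -0.17, Cyp27a1 -0.081, Cyp8b1 -0.094, Baat -0.034, Nr0b2 0.039 in exposed run 2. With no background correction the reversed values were Cyp8b1 -0.001, Baat -0.050 in exposed run 2. With median centring the reversed values were Cyp8b1 -0.022, Baat -0.065 in exposed run 2. With the deposited values the reversed values were Cyp27a1 -0.028, Cyp8b1 -0.027, Baat -0.071 in exposed run 2. With no slide block the reversed values were Baat -0.024 in exposed run 2. With no filter on dim probes the reversed values were Baat -0.002 in exposed run 2. With a filter for all arrays the reversed values were Baat -0.003 in exposed run 2. With control run 2 alone as the comparison the reversed values were Slc10a1 0.062, Nr1h4 0.023 in exposed run 2. Leaving out each animal in turn, values that changed sign ran over Cyp8b1 -0.028 to 0.15 over all mice, and Cyp7a1 -0.24 to 0.59, Cyp7b1 -0.047 to 0.46, Cyp8b1 -0.17 to 0.35, Baat -0.097 to 0.35, Slco1a1 -0.26 to 0.42, Abcb11 -0.14 to 0.26, Nr0b2 -0.15 to 0.21 in exposed run 1, and Cyp7b1 -0.021 to 0.21, Cyp27a1 -0.032 to 0.14, Cyp8b1 -0.17 to 0.21, Baat -0.14 to 0.13, Slc10a1 -0.16 to 0.056, Nr1h4 -0.13 to 0.030, Nr0b2 -0.11 to 0.092 in exposed run 2. In the wider list, the count of 2 in exposed run 1 was 4 with no background correction or with processed signals, 5 with the deposited values, 8 in Cy5 alone and 0 with median centring or against control run 1 alone, and 1 to 3 when an animal was left out. Between exposed runs the count of 2 was 0 with median centring, 1 with a fixed slide block, 4 in Cy5 alone and 2 to 3 with an animal left out. Between control runs the count of 0 was 1 in Cy5 alone, with a filter for all arrays or with the earlier software version left out, and 0 to 1 with an animal left out. Over all mice it was 1 without exposed run 1, in exposed run 2 it was 1 against control run 1 alone, and in exposed run 3 it was 4 with array weights and 0 to 1 with an animal left out. Of correlated pairs, 32 passed as reported and 3 in Cy5 alone. The correlation of Nr0b2 with Dbp was -0.15 in control mice and -0.13 over the 30 mice with run means subtracted, and that of Cyp7a1 with Dbp 0.089 in exposed mice.

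Over all tested probes, counts passing were 4 over all mice (0 to 410 over the settings other than left-out animals), 976 between exposed runs (125 to 1572), 21 between control runs (3 to 30), 1132 in exposed run 1 (174 to 1981), 4 in exposed run 2 (0 to 122) and 31 in exposed run 3 (0 to 554). The number of arrays limits the precision, and reference signal near background limits the ratios of Slco1a1, Cyp7a1 and Cyp8b1, whose Cy3 was well above background on 0, 17 and 16 of 30 arrays.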
